A study of Mus musculus with 4 samples.

Results

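Small leucine-rich proteoglycans are secreted matrix proteins with a core of leucine-rich repeats, and 10 genes of this family were followed: the class I genes Bgn (biglycan), Dcn (decorin) and Aspn (asporin), the class II genes Lum (lumican), Fmod (fibromodulin), Prelp (prolargin) and Omd (osteomodulin), and the class III genes Ogn (osteoglycin, also called mimecan), Epyc (epiphycan) and Optc (opticin). All 10 were found among the 18108 genes that the count tables shared. They were read in smooth muscle cells, taken as cells with at least 5 UMIs of Myh11 (smooth muscle myosin heavy chain) and 0 UMIs of Pdgfra (a fibroblast receptor), and in fibroblasts, taken as cells with at least 1 UMI of Pdgfra and at most 2 of Myh11. A UMI, or unique molecular identifier, stands for 1 captured transcript. Fibroblasts were also divided into those with at least 2 UMIs of Pi16, a marker of adventitial fibroblasts, and those with 0.

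Proteoglycans of this family bind collagen fibrils and help set fibril diameter and spacing. Several carry glycosaminoglycan chains: dermatan or chondroitin sulfate on biglycan and decorin, keratan sulfate on lumican and fibromodulin, whereas asporin carries none. Biglycan and decorin also bind TGF-beta, and biglycan deficiency in mice and humans is linked to aortic aneurysm and rupture. Opticin is best known from the vitreous of the eye, epiphycan from epiphyseal cartilage and osteomodulin from bone.

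The study compared how aortic cells of different embryonic origins respond to angiotensin II (AngII), the vasoconstrictor peptide of the renin system. All groups were male mice of the strain Mef2c-mTmG, in which mTmG is a membrane-bound fluorescent reporter that changes colour after recombination. The labels name no Cre line, give no ages and do not say how many mice went into a library. Live single cells of digested aorta were sorted by that lineage mark and captured with the 10x Chromium 3′ v3 chemistry. The group SHF_Baseline held second heart field cells without infusion, SHF_AngII held second heart field cells after 3 days of AngII, and CNC_AngII held cells of the other lineage, whose abbreviation the labels do not spell out, after the same infusion. Each group was 1 library, so no comparison below has a replicate check and no test was made. The fourth sample of the series, CNC without infusion, was not analysed here.

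After filtering, 8374 cells of SHF_Baseline, 9299 of SHF_AngII and 10194 of CNC_AngII were used, at median depths of 10315.5, 13325 and 12609.5 UMIs. Smooth muscle cells numbered 2259, 4649 and 6385, and fibroblasts 3939, 2640 and 842. In that order, fibroblasts were 47.0%, 28.4% and 8.26% of the kept cells. All 7 smooth muscle markers other than Myh11 were found in the smooth muscle class, with a summed level of 55344 to 62999 CPM (UMIs per 1000000 UMIs) against 1303 to 4066 CPM in fibroblasts. The 5 fibroblast markers not used by the gate or the family summed to 6034 to 6820 CPM in fibroblasts and 765 to 1157 CPM in smooth muscle. Macrophage markers summed to 297 CPM in smooth muscle and 211.5 CPM in fibroblasts of CNC_AngII, against 19.7 CPM or less in both classes of the SHF libraries. Between 29 and 34 cell barcodes were shared by any pair of libraries. The baseline table lists 18760 genes, against 32285 genes for AngII, and 514 genes were matched by a synonym. Every ratio of AngII to baseline may thus include a difference in annotation, whose size was not tested.

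The 1 member at least 2-fold higher in smooth muscle than in fibroblasts was Optc, in each library. The start region of its gene is shown with that of its neighbour Prelp. Both genes lie on the minus strand of chromosome 1 (GRCm38, GENCODE M21): Prelp at 133910304 to 133921414 and Optc at 133897199 to 133907999, 2304 bases apart, and Fmod lies 115839 bases beyond Prelp. RefSeq (GRCm38.p6) gave start-region sequences for 8 of the 10 members, with no entry for Dcn and Lum. The 250 bases before the RefSeq start are printed 5′ to 3′ on the gene's strand. Capitals mark a match to the Smad box CAGAC, searched on both strands. The region of Optc is chr1:133908000-133908249 and that of Prelp is chr1:133921402-133921651.
Optc: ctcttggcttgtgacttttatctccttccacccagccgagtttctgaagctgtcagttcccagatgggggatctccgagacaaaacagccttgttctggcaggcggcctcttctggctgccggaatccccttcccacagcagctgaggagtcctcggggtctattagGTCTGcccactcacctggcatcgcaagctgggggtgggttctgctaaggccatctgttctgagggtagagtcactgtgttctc
Prelp: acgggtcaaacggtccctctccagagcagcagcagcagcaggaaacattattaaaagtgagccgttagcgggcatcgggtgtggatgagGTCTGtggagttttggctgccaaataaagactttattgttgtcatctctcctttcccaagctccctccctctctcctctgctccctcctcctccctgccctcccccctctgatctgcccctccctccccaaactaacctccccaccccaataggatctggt
A Smad box was found in 3 of the 8 members (Optc, Prelp and Fmod), in windows of 250 bases before to 50 after the start. It was also in 49.6% of all 32851 RefSeq windows of that length. The CArG box, the motif bound by serum response factor, was searched on both strands too: 0 of the 8 members held it, against 1.63% of all windows. A match or its lack describes letters only.

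The other members lie in 3 further places in the same annotation. Dcn (97479609 to 97518143), Lum (97565128 to 97572703) and Epyc (97644068 to 97682454) follow each other on the plus strand of chromosome 10, with Kera (keratocan) between Lum and Epyc. Aspn (49544443 to 49567565), Omd (49582462 to 49592822) and Ogn (49608046 to 49624501) lie on the plus strand of chromosome 13, next to Ecm2, inside the body of Cenpp, which runs on the opposite strand. Bgn is on chromosome X at 73483602 to 73495933. Exons of Aspn overlap those of Cenpp, exons of Prelp those of Gm15851 and exons of Epyc those of Gm10754, each on the opposite strand. The sources do not say whether counting used strand, so reads of these pairs may not be separated.

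In smooth muscle the family was mostly Bgn. Bgn stood at 3003 CPM in SHF_Baseline (95% counting interval 2983 to 3023), 3733 CPM in SHF_AngII (3719 to 3748) and 3585 CPM in CNC_AngII (3573 to 3597). That was 63.6%, 82.6% and 89.6% of the UMIs of the 10 genes, which together reached 4718, 4519 and 4001 CPM. All intervals here and below cover counting error only. The 3′ chemistry counts transcript ends, so a level needs no division by length, but capture can still differ between genes.

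Fibroblasts held about as much Bgn and far more of most other members. Bgn there stood at 3316, 4100 and 4235 CPM in SHF_Baseline, SHF_AngII and CNC_AngII. Dcn, whose product coats collagen fibrils, was the leading member at 15528 CPM in SHF_Baseline (15489 to 15568), 5757 CPM in SHF_AngII and 4662 CPM in CNC_AngII. It made up 67.6%, 46.3% and 42.2% of the family's UMIs, and the whole family came to 22983, 12443 and 11050 CPM. Bgn and Dcn were thus the leading pair in every library, with Dcn far ahead only at baseline.

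**Figure D1:**
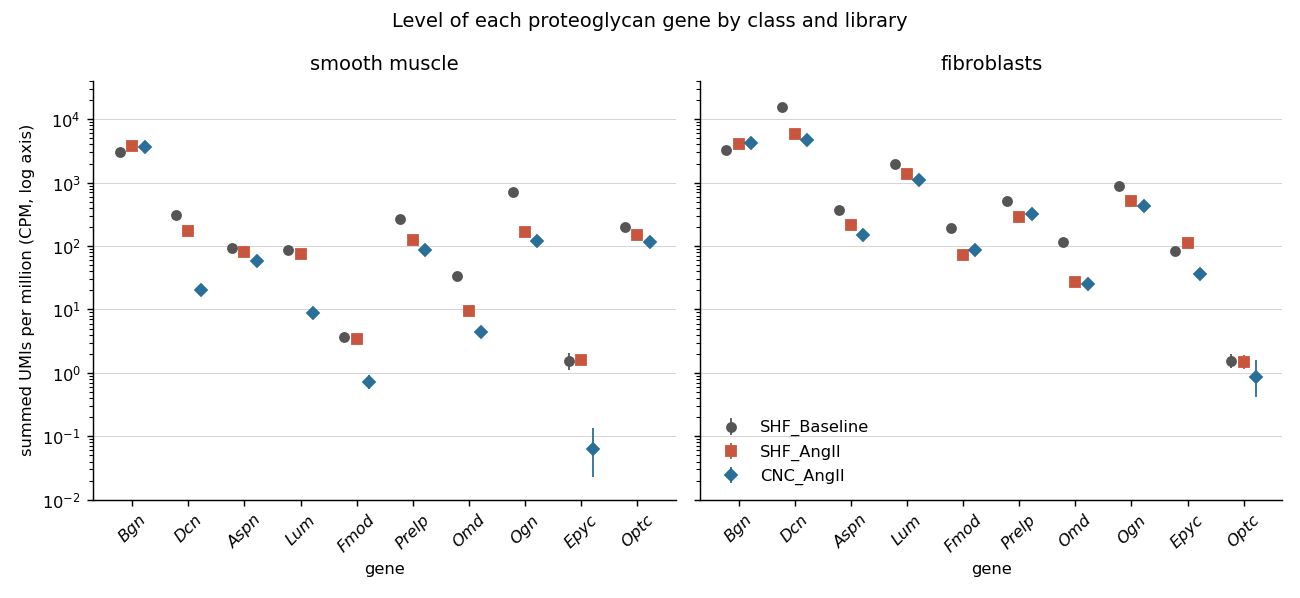
Level of each gene in smooth muscle (left) and fibroblasts (right), as summed CPM on a log axis; points are the 3 libraries (1 library per group) and bars are 95% Poisson counting intervals, hidden by the points where narrow. Bgn sits between 3003 and 4235 CPM everywhere, while Optc is at 117 to 202 CPM in smooth muscle and 0.873 to 1.56 CPM in fibroblasts.

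Between the classes, a gene was called different where its CPM differed at least 2-fold, after 1 CPM was added to both values, among genes with a mean of at least 10 CPM. Higher in fibroblasts were 6 members in SHF_Baseline (13.9% of all genes tested were so called), 8 in SHF_AngII (12.8%) and 8 in CNC_AngII (12.1%). Dcn, Aspn, Lum, Fmod, Omd and Epyc were among them in each library, and Prelp and Ogn joined them in both AngII libraries. Omd was no longer 2-fold under 1 of 16 alternatives in SHF_Baseline (0.79) and in SHF_AngII (0.96), nor was Prelp in SHF_AngII (0.99). Lower in fibroblasts was 1 member, Optc, in SHF_Baseline (7.58% of all genes), SHF_AngII (9.58%) and CNC_AngII (9.23%). Bgn was called in none: its log2 ratio was 0.14, 0.14 and 0.24 in the 3 libraries.

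Optc stood at 202 CPM in smooth muscle of SHF_Baseline (197 to 208), 150.5 CPM in SHF_AngII (148 to 153) and 117 CPM in CNC_AngII (115 to 119). In fibroblasts of the same libraries it stood at 1.56, 1.49 and 0.873 CPM, which is 130-fold, 101-fold and 134-fold lower. After each cell was thinned to 3000 UMIs, an expected 42.1%, 36.3% and 30.6% of smooth muscle cells kept an Optc UMI, against 0.551%, 0.512% and 0.244% of fibroblasts. Unthinned shares were 82.2%, 79.4% and 73.6% against 1.42%, 2.54% and 1.19%, and exact 95% binomial (Clopper-Pearson) intervals of unthinned shares reached at most 2.08 percentage points to either side in smooth muscle and 3.43 in fibroblasts. In the 1390 macrophages of CNC_AngII, which should lack it, the thinned share was 0.226% (unthinned 0.719%), close to the share in that library's fibroblasts. Prelp, its neighbour on the same strand, went the other way, with 520, 285 and 318 CPM in fibroblasts and 263, 124 and 86.0 CPM in smooth muscle.

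The class gates themselves use Myh11, so Optc was also read along Myh11 among all cells without Pdgfra. In SHF_Baseline it stood at 1.73 CPM in cells with 0 Myh11 UMIs, 28.0 CPM with 1 to 4, 121 CPM with 5 to 9, 176 CPM with 10 to 19 and 212.5 CPM with 20 or more. SHF_AngII gave 2.34, 17.8, 97.4, 145 and 157 CPM in the same order, and CNC_AngII gave 0.881, 9.99, 79.0, 99.1 and 127.5 CPM. The 2065 cells of CNC_AngII with 0 Myh11 UMIs included 1390 macrophages, against 4 in SHF_Baseline and 5 in SHF_AngII. Without macrophages, Optc in that bin of CNC_AngII stood at 1.68 CPM, and Dcn at 3576 CPM rather than 909 CPM. Depth moved with the bins: the median was 5471 UMIs at 0 Myh11 UMIs and 13302 at 20 or more in SHF_Baseline, and its part in the order was not tested. Dcn ran in the opposite order over these bins in each library, from 14956 to 202 CPM in SHF_Baseline.

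**Figure D2:**
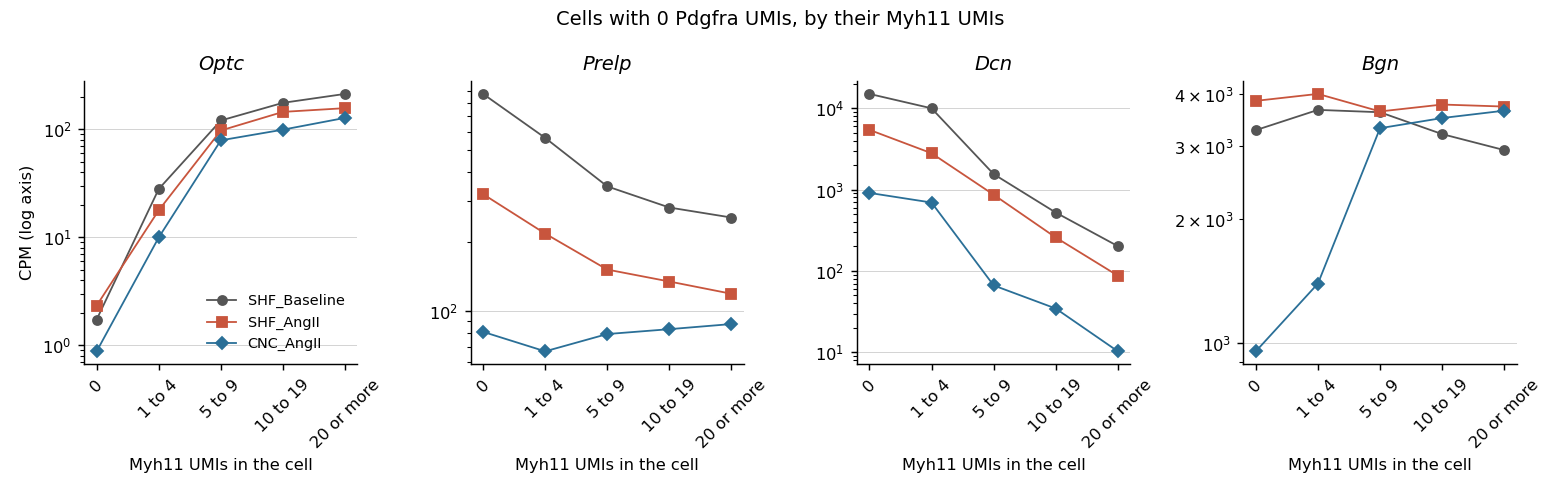
CPM (log axis) of Optc, Prelp, Dcn and Bgn in cells with 0 Pdgfra UMIs, by the number of Myh11 UMIs in the cell; each line is 1 library. Optc climbs with Myh11 in all 3 libraries, while Dcn drops. Macrophages are included and were 1390 of the 2065 CNC_AngII cells with 0 Myh11 UMIs.

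The rest of the smooth muscle repertoire was read against endothelial cells and macrophages, because free RNA can put UMIs into cells that do not express a gene. Ogn, which regulates collagen fibrils, kept a UMI after thinning in 79.5%, 37.1% and 29.7% of smooth muscle cells in SHF_Baseline, SHF_AngII and CNC_AngII, against 1.44%, 5.18% and 1.90% of endothelial cells. Prelp, which links basement membranes to collagen, did so in 50.5%, 29.6% and 23.3% against 18.2%, 9.23% and 3.73%. Aspn, which binds collagen and TGF-beta, did so in 19.4%, 18.9% and 14.4% against 0%, 3.34% and 3.42%. The endothelial cells numbered 49, 29 and 30, so that intervals of their unthinned shares reached up to 18.5 percentage points to either side, with median depths of 7136, 8729 and 5205.5 UMIs, against 12441, 13336 and 13450 UMIs in smooth muscle. These endothelial cells are not free of fibroblast RNA: the 5 fibroblast markers summed to 967, 1433 and 1583 CPM in them, against 765, 1157 and 1149 CPM in smooth muscle. Ogn, Prelp, Aspn and Optc had higher thinned shares in smooth muscle than in endothelial cells in all 3 libraries. Bgn could not be read against endothelial cells, since they held it at 2831, 3048 and 2976 CPM, near its smooth muscle level. In CNC_AngII, cells with 0 Myh11 and 0 Pdgfra UMIs held Bgn at 956 CPM with macrophages included and 3593 CPM without them. The macrophages there thus held less than 956 CPM of Bgn, below the smooth muscle level of 3585 CPM in that library. The unthinned shares of Ogn in smooth muscle were 96.4%, 74.6% and 66.8%, those of Prelp 87.3%, 69.1% and 61.6%, and those of Aspn 42.6%, 47.2% and 38.7%, against 2.04%, 10.3% and 3.33%, 30.6%, 20.7% and 6.67%, and 0%, 6.90% and 3.33% of endothelial cells. The count of 0 for Aspn among 49 cells has an upper 95% bound of 7.25%.

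For Dcn and Lum the thinned shares were no higher in smooth muscle than in endothelial cells. The thinned share of smooth muscle cells with Dcn was 26.6%, 15.3% and 2.96% in SHF_Baseline, SHF_AngII and CNC_AngII (unthinned 51.1%, 33.4% and 8.41%), against 42.4%, 26.4% and 17.0% of endothelial cells (unthinned 55.1%, 37.9% and 16.7%). In macrophages of CNC_AngII it was also 2.96%, at a median depth of 11121.5 UMIs. In SHF_Baseline the 5% of endothelial cells with the most Dcn held 75.2% of its UMIs there, and 1 cell had 618. For Lum the shares were 10.7%, 8.99% and 1.93% in smooth muscle (unthinned 20.4%, 19.6% and 5.50%), against 16.3%, 14.4% and 6.74% in endothelial cells (unthinned 18.4%, 17.2% and 6.67%) and 1.92% in the macrophages of CNC_AngII. The unthinned Lum shares were higher in smooth muscle than in endothelial cells in both SHF libraries. Fmod and Epyc were at 3.69 CPM or less in smooth muscle of every library. The thinned share with Omd was higher than in endothelial cells at baseline, with 9.38% against 2.75%, but not in SHF_AngII (3.14% against 3.66%) or CNC_AngII (1.51% against 1.90%).

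What Dcn there was in smooth muscle sat in few cells. The 5% of smooth muscle cells with the most Dcn held 62.4%, 77.2% and 88.9% of its UMIs in SHF_Baseline, SHF_AngII and CNC_AngII, whereas the corresponding 5% held 12.2%, 12.8% and 11.8% of the Bgn UMIs. Cells with at least 10 Dcn UMIs numbered 190, 218 and 38. In these cells Lum reached 731, 1045 and 471 CPM, against 6.42, 8.92 and 3.02 CPM in smooth muscle cells with 0 Dcn UMIs. They also carried fibroblast markers: Dpt (dermatopontin) at 126, 152 and 205 CPM against 2.61, 2.45 and 0.858 CPM, and Ly6a at 48.8, 206 and 450 CPM against 1.48, 3.49 and 2.16 CPM.

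In smooth muscle cells with 0 Dcn UMIs, Bgn, Ogn, Prelp, Aspn and Optc stood near the level of the whole class, and Lum did not, as given above. These cells were 48.9%, 66.6% and 91.6% of the class in SHF_Baseline, SHF_AngII and CNC_AngII. They held most class UMIs of Bgn, Ogn, Prelp, Aspn and Optc in SHF_AngII and CNC_AngII. In SHF_Baseline they held 41792 of 88728 Bgn UMIs, 10025 of 21347 Ogn UMIs and 3155 of 5979 Optc UMIs. Their Bgn stood at 2947, 3706 and 3580 CPM, their Ogn at 707, 149 and 120 CPM and their Prelp at 241, 107 and 83.3 CPM. Aspn stood at 88.4, 78.9 and 57.9 CPM and Optc at 222.5, 157 and 118 CPM in them. Over the whole class Ogn stood at 722, 167 and 121 CPM and Prelp at 263, 124 and 86.0 CPM. Fmod was at 0.423, 0.287 and 0.252 CPM in the cells with 0 Dcn UMIs, against 3.69, 3.38 and 0.720 CPM over the class.

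**Figure D3:**
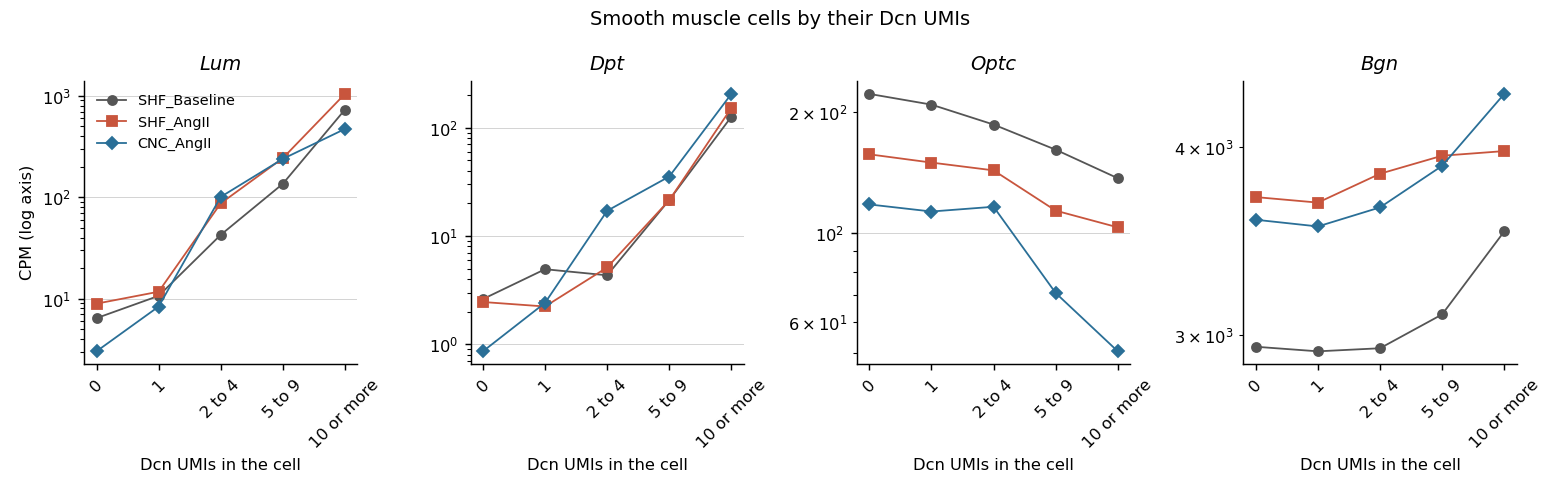
CPM (log axis) of Lum, the fibroblast marker Dpt, Optc and Bgn in smooth muscle cells, by the number of Dcn UMIs in the cell; each line is 1 library. Lum and Dpt climb from under 10 CPM to over 100 CPM as Dcn goes up, while Optc drops.

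AngII was read within the second heart field, as SHF_AngII over SHF_Baseline. In smooth muscle 3 of the 8 members tested were at least 2-fold lower (3.53% of all genes were) and 0 at least 2-fold higher (2.86% of all genes). The 3 were Ogn, Omd and Prelp. The median log2 ratio was -0.63 over the members and -0.10 over all 7000 genes tested. Above 0 were 1 of the 8 members, Bgn, and 2885 of the 7000 genes. Fmod and Epyc were under the minimum level in this class.

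Ogn went from 722 CPM (713 to 732) in SHF_Baseline to 167 CPM (164 to 170) in SHF_AngII, and CNC_AngII stood at 121 CPM (119 to 124). Its log2 ratio of AngII to baseline was -2.11 (-2.15 to -2.08), and 0.30% of the genes tested had a lower one. Omd, which binds to bone mineral and integrin, went from 33.7 to 9.30 CPM, with 4.39 CPM in CNC_AngII (log2 ratio -1.75, interval without pseudocount -2.00 to -1.71). Prelp went from 263 to 124 CPM (-1.07, -1.13 to -1.04). Under TMM scaling, which moves the median of all genes from -0.10 to 0.07, the ratio of Prelp was -0.90 and no longer 2-fold.

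In the same smooth muscle cells Optc went from 202 to 150.5 CPM (-0.42) and Aspn from 93.0 to 81.7 CPM (-0.18). Dcn went from 311 to 174 CPM (-0.84) and Lum from 85.1 to 75.3 CPM (-0.17), both at thinned shares no higher than those of endothelial cells. Subtracting 5% of each library's whole profile, as for free RNA, set Dcn to 0 CPM in SHF_Baseline and 46.2 CPM in SHF_AngII and Lum to 27.8 and 46.1 CPM, so that the direction of both turned. Bgn went from 3003 to 3733 CPM (0.31, 0.30 to 0.33). With a stricter cell filter only 120 of 2259 smooth muscle cells of SHF_Baseline remained, against 1593 of 4649 in SHF_AngII. Under that filter 6 members were past 2-fold, Bgn was at 0.06 and Optc at 0.25. The part of this difference in cell quality in the main ratios was not tested.

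In fibroblasts 3 of the 9 members tested were at least 2-fold lower after AngII (10.7% of all genes were) and 0 at least 2-fold higher (4.64% of all genes). The 3 were Dcn, Fmod and Omd. Dcn stood at 15528 CPM in SHF_Baseline and 5757 CPM in SHF_AngII, a log2 ratio of -1.43 (-1.44 to -1.43). Fmod, which modulates collagen cross-linking, stood at 195 CPM (190 to 199) and 73.1 CPM (70.6 to 75.6), a ratio of -1.40 (-1.47 to -1.35). For Omd the levels were 115 and 27.5 CPM and the ratio -2.03.

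The remaining fibroblast members moved less. Prelp was at -0.86, Ogn and Aspn each at -0.79 and Lum at -0.53, while Epyc was at 0.42 (0.36 to 0.49) and Bgn at 0.31 (0.30 to 0.32). The median was -0.79 over the 9 members and -0.21 over all 7693 genes tested. TMM scaling moves that median to 0.06 and puts Bgn at 0.58, Epyc at 0.70, Lum at -0.25, Dcn at -1.15, Fmod at -1.12 and Omd at -1.75. Of the 5 fibroblast markers outside the family, Dpt (1178 to 509 CPM), Tcf21 (236 to 135 CPM) and Cd34 (638 to 248 CPM) were lower in SHF_AngII, and Col1a1 (3691 to 4436 CPM) and Ly6a (958 to 1491 CPM) were higher, with sums of 6702 and 6820 CPM. Pi16 went from 3411 to 1345 CPM. Smooth muscle markers went from 1303 to 4066 CPM in the fibroblast class. The part of these in the members' ratios was not tested.

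In Pi16-positive fibroblasts the members at least 2-fold lower were the same 3, Dcn (-1.41), Fmod (-1.14) and Omd (-2.10), against 10.9% of all genes, and Fmod was at -0.87 under TMM scaling. Pi16-negative fibroblasts had 4, Dcn (-1.60), Fmod (-1.41), Prelp (-1.57) and Omd (-1.38), against 9.43% of all genes. In cells with 0 UMIs of 5 smooth muscle markers, a choice made after the data were seen, Dcn there was at -0.95 and no longer 2-fold. Prelp there went from 870 to 293 CPM, while in Pi16-positive cells it went from 446.5 to 289 CPM. Epyc was at 0.46 in Pi16-positive and -0.71 in Pi16-negative cells. These Pi16-negative groups were 550 and 265 cells.

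**Figure D4:**
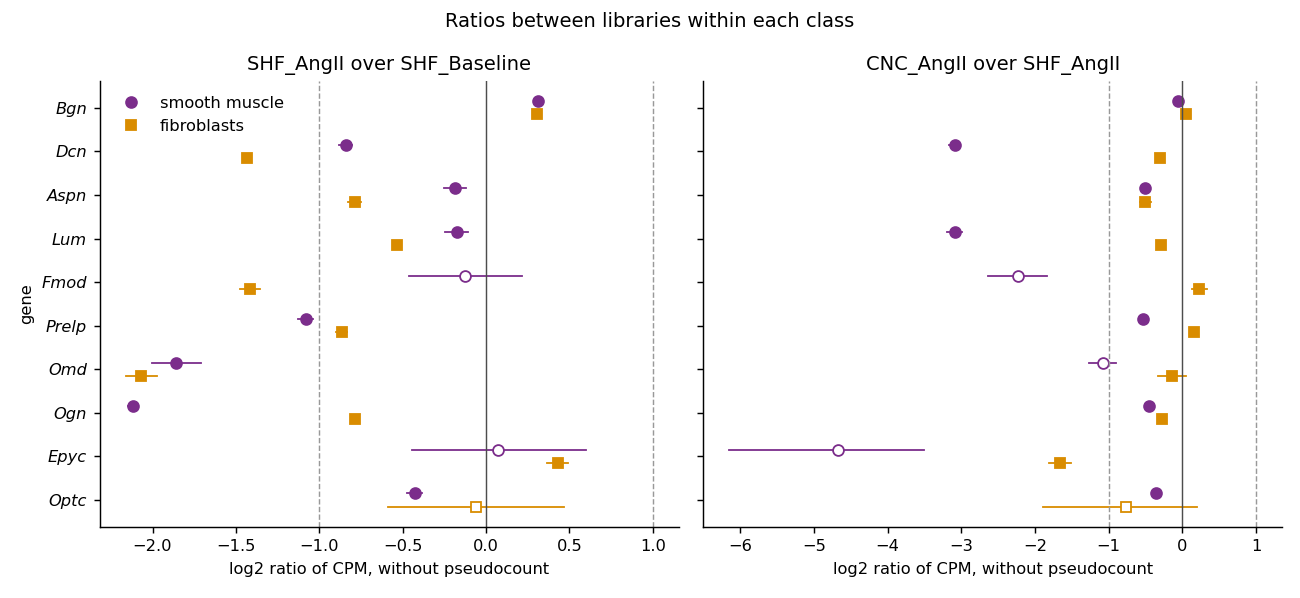
Log2 ratio of CPM without pseudocount for each gene, for AngII over baseline in the second heart field (left) and for CNC_AngII over SHF_AngII (right); circles are smooth muscle, squares fibroblasts, open symbols genes under 10 CPM, lines 95% counting intervals and dashed lines 2-fold. Most members lie left of 0 on the left, Dcn and Lum of smooth muscle lie near -3 on the right.

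Origin was read as CNC_AngII over SHF_AngII. These libraries share their gene list, and few genes differed 2-fold. In smooth muscle 2 of the 7 members tested, Dcn and Lum, were at least 2-fold lower in CNC_AngII (0.355% of all genes were) and 0 at least 2-fold higher (0.443% of all genes). Dcn stood at 174 CPM (170 to 177) in SHF_AngII and 20.3 CPM (19.4 to 21.3) in CNC_AngII, a log2 ratio of -3.03. Lum stood at 75.3 CPM (73.3 to 77.4) and 8.83 CPM (8.25 to 9.45), a ratio of -2.96. Both were at thinned shares no higher than in endothelial cells. In SHF_AngII the 218 cells with at least 10 Dcn UMIs, 4.69% of the class, held 9177 of 12056 Dcn UMIs and 3573 of 5231 Lum UMIs. In CNC_AngII 38 such cells, 0.595% of the class, held 1202 of 1949 and 326 of 847. These cells carried fibroblast markers, as given above, and their part in the ratios was not tested.

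Fibroblasts were 28.4% of the cells in SHF_AngII and 8.26% in CNC_AngII, and the part of that in these ratios was not tested. In smooth muscle cells with 0 UMIs of the fibroblast markers Dpt, Pi16, Tcf21, Cd34 and Ly6a, a choice made after the data were seen, the ratios were -2.66 for Dcn and -2.00 for Lum. After 5% of each library's profile was subtracted, Dcn was at 46.2 CPM in SHF_AngII and 0 CPM in CNC_AngII, and Lum at 46.1 and 1.40 CPM.

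The other 5 members tested in smooth muscle were within 2-fold by origin. Bgn was at -0.06, Optc at -0.36, Ogn at -0.45, Aspn at -0.50 and Prelp at -0.53, all lower in CNC_AngII. The median over the 7 members tested was -0.50, beside 0.01 over all 6765 genes.

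In fibroblasts 1 of the 9 members tested, Epyc, was at least 2-fold lower in CNC_AngII (0.152% of all genes were) and 0 at least 2-fold higher (0.457%). Epyc stood at 84.2 CPM (81.3 to 87.1) in SHF_Baseline, 113 CPM (110 to 116.5) in SHF_AngII and 35.9 CPM (32.5 to 39.5) in CNC_AngII. The ratio of CNC_AngII to SHF_AngII was -1.63 (-1.81 to -1.51), and 0.01% of the 7215 genes tested had a lower one. It was -1.72 in Pi16-positive fibroblasts, where 1 member was called beside 0.167% of genes, and -1.06 in Pi16-negative ones, where 1 member was called beside 1.51% of genes. The call in Pi16-negative fibroblasts held in 10 of 16 alternatives, with values up to -0.19. In fibroblasts with 0 UMIs of the smooth muscle markers Cnn1, Smtn, Mylk, Lmod1 and Des, also chosen after the data were seen, it was -0.84 and no longer 2-fold, in 871 and 295 cells.

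Dcn, Lum, Aspn and Ogn of fibroblasts were at -0.30, -0.29, -0.50 and -0.27 by origin, and Bgn, Fmod, Prelp and Omd at 0.05, 0.23, 0.16 and -0.14. In fibroblasts with 0 UMIs of those smooth muscle markers, Dcn was at 0.06 and Lum at -0.03. The difference between the classes in this ratio was not tested.

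Within fibroblasts the member that followed Pi16 was Fmod. Pi16-positive fibroblasts had less Fmod than Pi16-negative ones in SHF_Baseline (134 against 470 CPM, log2 ratio -1.81), SHF_AngII (60.3 against 176 CPM, -1.53) and CNC_AngII (66.0 against 192 CPM, -1.52). It was the 1 member at least 2-fold lower in each library, where 2.66%, 2.30% and 2.44% of all genes were. Along Pi16 UMIs of 0, 1, 2 to 4, 5 to 9 and 10 or more, Fmod stood at 470, 427, 363, 256 and 70.8 CPM in SHF_Baseline. The same bins gave 176, 121, 105, 87.1 and 39.7 CPM in SHF_AngII and 192, 131, 109, 81.7 and 45.4 CPM in CNC_AngII. Median depth over the bins ran from 6271 to 10777.5 UMIs in SHF_Baseline.

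Other members differed by Pi16 in some libraries. At baseline Lum was at 2898 CPM in Pi16-negative and 1767 CPM in Pi16-positive cells (-0.71), Prelp at 870 and 446.5 CPM (-0.96), and Aspn at 212 and 403 CPM (0.92). After AngII these ratios were nearer 0 in the SHF library, at -0.21, -0.02 and -0.01. Epyc was at least 2-fold higher in Pi16-positive cells of SHF_AngII (119 against 50.5 CPM, 1.22), the 1 member so called beside 0.940% of all genes. Without cells carrying smooth muscle markers, the ratio of Epyc was 0.50 and that of Fmod -0.92 in that library.

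Markers of other cell types differed by Pi16 too, and not all in 1 direction. Smooth muscle markers summed to 2320, 8070 and 7222 CPM in them, against 1092, 3582 and 3247 CPM in Pi16-positive cells. The 7 cartilage markers summed to 972, 222 and 364.5 CPM against 158, 156 and 285 CPM, and the 5 mesothelial markers to 1.97, 201 and 78.8 CPM against 5.49, 2.32 and 1.61 CPM. The 7 macrophage markers summed to 18.1, 15.4 and 813 CPM against 6.72, 20.4 and 115 CPM, and the 2 Schwann cell markers to 31.6, 16.5 and 27.9 CPM against 21.0, 30.3 and 40.2 CPM. Mesothelial markers at baseline, macrophage markers in SHF_AngII and Schwann cell markers in both AngII libraries were thus lower in Pi16-negative cells. Fibroblasts with at least 2 UMIs of Comp or Chad, 2 cartilage genes, had 392 CPM of Fmod and 1078 CPM of Prelp in SHF_Baseline, against 179 and 461 CPM in those with 0 of both. Their part in the Fmod difference was not tested.

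**Figure D5:**
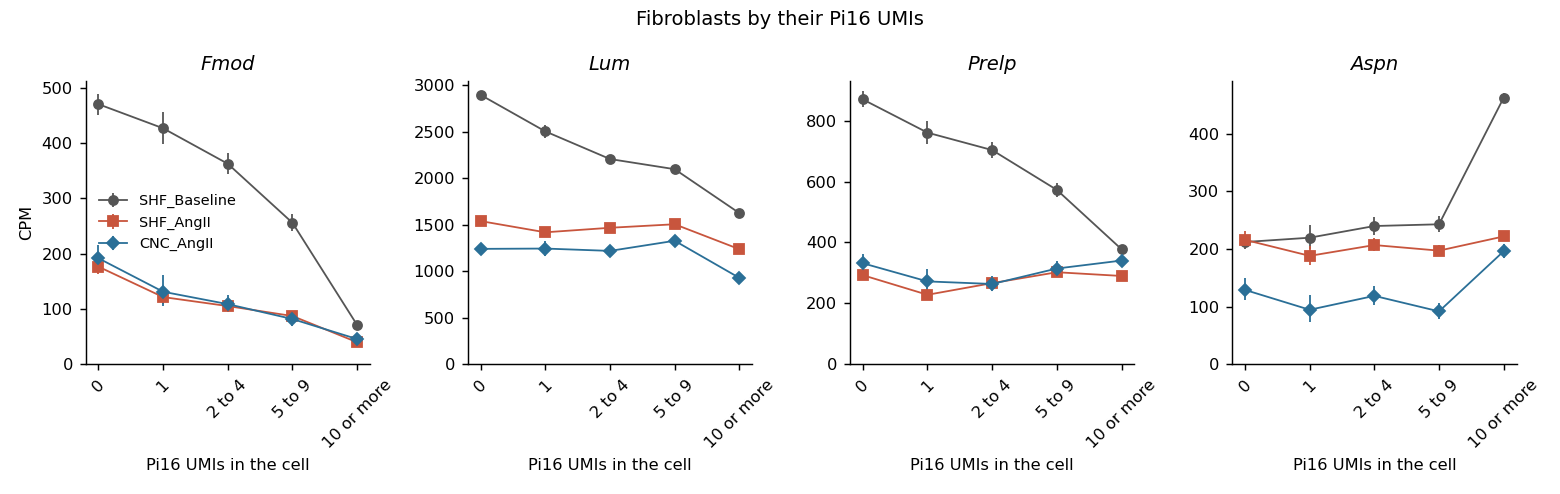
CPM of Fmod, Lum, Prelp and Aspn in fibroblasts by the number of Pi16 UMIs in the cell; each line is 1 library and bars are 95% Poisson counting intervals. Fmod drops along the bins in all 3 libraries, from 470 to 70.8 CPM in SHF_Baseline.

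Fmod, Epyc, Aspn and Omd were found in a part of the fibroblasts, and cells with at least 2 UMIs of each were set beside cells with 0 in the same library. Cells with Fmod, 815 of them in SHF_Baseline, carried more Chad (chondroadherin, another leucine-rich matrix protein; 152 against 9.77 CPM) and Ecrg4 (840 against 89.3 CPM). In SHF_AngII they carried more Cpxm2 (216 against 60.4 CPM) and Thbs4 (80.1 against 22.6 CPM), and Cpxm2 was again among the leading genes in CNC_AngII (154 against 40.3 CPM). Cells with Epyc carried more Sfrp1, a secreted Wnt antagonist, in SHF_Baseline (652.5 against 206 CPM) and SHF_AngII (1417 against 501 CPM). Cells with Aspn carried more Thbs4, thrombospondin 4, in SHF_AngII (60.8 against 2.94 CPM) and CNC_AngII (52.7 against 0.206 CPM). Cells with Omd carried more Cytl1 in SHF_AngII (157 against 25.5 CPM) and CNC_AngII (282 against 65.0 CPM). Cells with a member were usually deeper, such as 19253 against 14125 UMIs at the median for Fmod in SHF_AngII.

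Cthrc1, a gene of activated fibroblasts, divided the fibroblasts along other members. In SHF_AngII, 1359 fibroblasts with at least 2 Cthrc1 UMIs had 5134 CPM of Dcn, 1205 CPM of Lum and 243 CPM of Aspn. The 994 fibroblasts with 0 had 7241, 1666 and 156.5 CPM. In CNC_AngII the levels were 3331, 858 and 183 CPM in 367 cells with Cthrc1 and 6947, 1503 and 108 CPM in 372 cells without. Dcn and Lum were lower and Aspn higher in the cells with Cthrc1 in both, and the same held at baseline, where 209 cells had it (14538, 1251 and 681 CPM against 15595, 2055 and 323 CPM). The cells with Cthrc1 were deeper, at 20581 against 10656.5 UMIs in SHF_AngII.

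Smooth muscle cells with at least 5 UMIs of Spp1 (osteopontin, a gene of modulated smooth muscle) had less Optc and Ogn than cells with 0. In SHF_AngII the 156 cells with Spp1 had 82.6 CPM of Optc and 107 CPM of Ogn, against 158 and 175 CPM in 4192 cells. In CNC_AngII the 537 cells with Spp1 had 61.8 and 78.1 CPM, against 129 and 131 CPM in 5027 cells. Bgn was 4031 against 3687 CPM in SHF_AngII and 3484 against 3602 CPM in CNC_AngII. Depth differed here as well, at 23126 against 12700.5 UMIs in SHF_AngII.

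Across 9 class sums (smooth muscle, Pi16-positive and Pi16-negative fibroblasts of 3 libraries), the members' log2 levels were compared with those of 2594 genes of at least 50 CPM on average. The sums share libraries and the class contrast, so each correlation is a description. The genes most like Dcn were Fbln1 (Pearson r = 0.996), C1ra (0.994) and Mgst1 (0.993), and Lum was nearest to Dcn itself (0.992). Optc was most like Ehbp1l1 (0.998), Cfl2 (0.995) and Stimate (0.995), and Epyc most like Col3a1, Adamtsl2 and Mfap2 (0.987 each). Omd was most like Hspa1b (0.992), Osgep (0.992) and C1d (0.988), and Ogn most like Sumo2 (0.990), Pcbp2 (0.984) and G3bp1 (0.972). Such values were common. Genes with r over 0.9, which can include the member itself, numbered 228 for Dcn, 211 for Optc, 249 for Epyc, 145 for Omd and 62 for Ogn. Between members, Omd and Ogn were at 0.948, Dcn and Fmod at 0.952, and Optc and Epyc at -0.949.

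Genes of the same pathway, from lists chosen with earlier results of these data known, were read in the same way. Of 8 other leucine-rich proteoglycan genes, 1 could be read in smooth muscle and 3 in fibroblasts after AngII. At least 2-fold lower were 1 in smooth muscle (3.53% of all genes were) and 2 in fibroblasts (10.7%). In fibroblasts 1 was above 0. Ecm2, the neighbour of Aspn on chromosome 13, went from 127 to 38.6 CPM in smooth muscle (-1.69) and from 115 to 22.2 CPM in fibroblasts (-2.33), and Chad from 46.1 to 2.14 CPM in fibroblasts (-3.91). Among the members at that locus, Omd was at least 2-fold lower in both classes, Ogn in smooth muscle but not in fibroblasts (-0.79), and Aspn in neither (-0.18 and -0.79). Cenpp on the opposite strand went from 0.508 to 1.38 CPM in smooth muscle and from 0.950 to 9.55 CPM in fibroblasts. The tables were annotated differently, and its part in these ratios was not tested.

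Of the 10 collagen chains that these proteoglycans bind, 9 were tested in smooth muscle and 10 in fibroblasts. In smooth muscle Col6a3 was at least 2-fold higher (117 to 279 CPM, 1.25), as 2.86% of all genes were. Col14a1 was lower (159 to 49.4 CPM, -1.67), as 3.53% of all genes were. Above 0 were 7 of the 9, beside 2885 of all 7000 genes tested, with medians of 0.46 and -0.10. In fibroblasts Col12a1 (45.6 to 159 CPM, 1.78) and Col5a2 (467 to 950 CPM, 1.02) were higher and 0 were lower. Of all genes 4.64% were higher and 10.7% lower there. Col14a1 was also lower by origin in smooth muscle, at 16.2 CPM in CNC_AngII against 49.4 CPM in SHF_AngII (-1.55). By origin 0.355% of all genes were at least 2-fold lower in that class.

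Most enzymes that build the glycosaminoglycan chains stayed within 2-fold after AngII, as did most genes. Over all genes tested, 2.86% were at least 2-fold higher and 3.53% lower in smooth muscle, and 4.64% and 10.7% in fibroblasts. Of 25 genes of chondroitin and dermatan sulfate synthesis, 12 were tested in smooth muscle, with Chst12 higher (33.0 to 73.3 CPM, 1.13), and 18 in fibroblasts, with Xylt1 lower (29.2 to 7.02 CPM, -1.91). Of 10 genes of keratan sulfate synthesis, 4 and 5 were tested. B3gnt2 went from 0.711 to 39.5 CPM in smooth muscle (4.57) and from 1.13 to 30.0 CPM in fibroblasts (3.86), and St3gal2 was lower in fibroblasts (-1.10). The part of the different baseline annotation in these ratios was not tested.

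Among 12 proteases that cut the matrix, 6 were tested in smooth muscle and 7 in fibroblasts after AngII. Mmp3 was higher in both (7.95 to 30.1 CPM, 1.80, and 254 to 680 CPM, 1.41), and Mmp2 was lower in fibroblasts (561 to 229 CPM, -1.29). Of 11 receptors, 5 and 6 were tested. Lower in fibroblasts were Tlr4 (16.5 to 5.55 CPM, -1.42), a receptor for soluble biglycan and decorin, and Igf1r (84.2 to 37.1 CPM, -1.16). Beside these proteases and receptors, 2.86% of all genes were at least 2-fold higher in smooth muscle. In fibroblasts 4.64% of all genes were higher and 10.7% lower.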

How the data were processed

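The libraries were 10x Chromium 3′ v3 captures of sorted aortic cells, per the labels' protocols. The deposited tables hold raw UMI counts per gene and barcode, as the authors made them. The submitters' processing notes name fastp, STAR 2.5, HTSeq 0.6.1 and the build mm10. Gene annotation and strand setting are not given in the sources used here. Baseline gene names were matched to the AngII tables directly or, for 514 genes, by a unique synonym, and 13 repeated names were left out. Total depth was 92474476, 147854476 and 150954701 UMIs.

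Barcodes needed 500 detected genes and no more than 10% of UMIs from mitochondrial genes. Removed were also doublets marked by Scrublet in scanpy 1.11.5 (205, 191 and 277 cells). Levels (CPM) are sums over a class in 1 library, per 1000000 UMIs of the class. Shares of cells were thinned to 3000 UMIs. Ratios are log2((CPM + 1)/(CPM + 1)), called at 2-fold among genes with a mean of at least 10 CPM. Intervals are 95% and exact: Poisson for levels, conditional binomial, without pseudocount, for ratios. TMM factors came from edgeR 4.0.16, with the deposited counts summed per class. The scripts were tested on simulated data.

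The members and lists were chosen with earlier results of these data known. Named besides members were genes of the lists past 2-fold, the 3 genes most correlated with a member, and the 5 leading genes of cells with at least 2 UMIs of a member, of which some are given. The divisions of cells by Cthrc1, Spp1, Comp or Chad, Dcn and Myh11 were added descriptions. Alternatives covered filters, gates, scaling, pseudocount, minimum level and free RNA.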

Additional observations from a re-analysis of the deposited data

Results flagged for a closer look

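Cells outside both classes held a family signal that the comparisons do not use. Cells with 0 Myh11 and 0 Pdgfra UMIs that were not macrophages numbered 1619 in SHF_Baseline, 1293 in SHF_AngII and 675 in CNC_AngII. Their Dcn stood at 14997 CPM, 5437 CPM and 3576 CPM, above the 35.0, 197 and 30.1 CPM of macrophages in the same libraries. They also had 985, 387 and 315 CPM of Dpt and 1.74, 2.35 and 1.68 CPM of Optc. Their median depths were 5407, 8194 and 6592 UMIs, lower than in the fibroblast class. Only 4 and 5 macrophages were found in the SHF libraries.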

How the results depend on the processing

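The 14 counts of members past 2-fold were recomputed under 16 alternatives. Of 224 values, 207 stayed within 1.5 times the main count. With the stricter cell filter (1000 genes, 5% mitochondrial) the counts were 6 for AngII over baseline in smooth muscle (main 3), 0 by origin in Pi16-negative fibroblasts (main 1) and 3 for Pi16 in SHF_Baseline (main 1). The stricter gates and the gates per 10000 UMIs each gave 1 for Pi16 in SHF_AngII (main 2), and the latter gave 0 by origin in Pi16-negative fibroblasts, as did the mean of per-cell shares, a pseudocount of 10 CPM and a minimum of 50 CPM. By origin in smooth muscle (main 2) the count was 4 without a minimum level and 1 at 50 CPM. Without a minimum it was 2 for Pi16 in CNC_AngII (main 1). In cells without UMIs of the other class's markers, an alternative added after the data were seen, the counts by origin were 0 in fibroblasts (main 1) and 2 in Pi16-negative fibroblasts, and those for Pi16 were 3, 0 and 2 in SHF_Baseline, SHF_AngII and CNC_AngII (main 1, 2 and 1). Of 47 called ratios, 37 stayed past 2-fold under all 16 alternatives, and 0 of 47 changed sign. The limits are the single library per group, the different annotation of the baseline table, and few Pi16-negative fibroblasts in CNC_AngII (127). No paired analysis was possible because each group has 1 library.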

Other observations

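Cells with at least 5 UMIs of Myh11 and at least 1 of Pdgfra, which fall in neither class, numbered 396, 435 and 341 in SHF_Baseline, SHF_AngII and CNC_AngII. Dcn stood at 1663, 1455 and 596 CPM and Optc at 175, 100.1 and 90.3 CPM in them, between the levels of smooth muscle and fibroblasts for both genes. Their median depths of 13587.5, 17430 and 18063 UMIs were above those of either class. Doublets marked by Scrublet had been removed before, and whether unmarked doublets remained among these cells was not tested.

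Igfbp2, which encodes an IGF-binding protein, divided the smooth muscle cells of SHF_AngII by Ogn and Prelp. Ogn was at 128 CPM in 2695 cells with at least 2 Igfbp2 UMIs and at 256 CPM in 1513 cells with 0, and Prelp at 104 and 174 CPM. In CNC_AngII the same split gave 113 and 156 CPM for Ogn, and 82.2 and 99.4 CPM for Prelp. Optc was alike on both sides, at 151 and 153 CPM in SHF_AngII and 117 and 116 CPM in CNC_AngII. Depth differed too, with 14955 against 10419 UMIs at the median in SHF_AngII.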
